A study of Mus musculus with 32 samples.

Results

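The potassium channel genes described here were those whose symbol on the array follows the Kcn nomenclature, without the BK, SK and GIRK genes Kcnma1, Kcnmb4, Kcnn1, Kcnn2, Kcnn3, Kcnj3, Kcnj6 and Kcnj9 and the astrocytic Kcnj10. They came to 75 of the 18138 genes in the deposited table, measured with 110 of its 25697 probes. Frontal cortex RNA of 32 female F1 hybrid mice of C57BL/6J and FVB/NJ was hybridized to Illumina MouseRef-8 v2.0 BeadChips, 1 mouse per array. In 20 mice, ethanol at 20% and water had been offered side by side for 20 days in limited sessions in the dark. The other 12 mice were matched controls, with the same sex and cross. The labels name the cross in 1 direction, while the study's methods describe reciprocal crosses.

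Potassium channels let potassium leave or enter the cell and so set the resting potential, the shape of the action potential and the rate of firing. Voltage-gated Kv channels are tetramers of alpha subunits. Kv1 channels assemble with cytoplasmic beta subunits, and Kv4 channels, which carry the A-type current of dendrites, assemble with calcium-binding KChIPs. Silent Kv subunits do not form channels alone and modify Kv2. Kv7 channels carry the M current, EAG, ERG and ELK channels form the KCNH family, inward rectifiers hold the membrane near the potassium equilibrium, and K2P channels carry leak current. In frontal cortex these channels are known chiefly from neurons, with a few in glia and vessels.

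The 20 ethanol arrays had 10644 to 11544 detected probes each, and the 12 control arrays 9480 to 11413, where detected means a detection p-value below 0.01. Control mouse C66 had the fewest, with a median signal of 146.2 against 166.1 to 203.3 on the ethanol arrays. The arrays lay on 4 chips of 8. Chips 1 and 2 held ethanol arrays alone and chip 4 held control arrays alone. On chip 3, 4 ethanol arrays took the odd positions and 4 control arrays the even positions, so treatment and position cannot be told apart there. Every array is a separate mouse.

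Because each value rests on 1 probe of 50 bases, the first 30 bases are shown for the genes on which the results turn. These are genes called below, Kcnip2 as the Kv4 list's member of lowest p-value, and Kcnu1, whose values followed a chip. For Kcnab1, Kcnh1 and Kcnip2 all probes are shown, since their detection or contrasts differed. Each line names the gene, the first base of the probe in its annotated transcript and the number of the 32 arrays that detected it.
Kcnab1 from base 3055, 32 arrays: ctagctagcctccagcaggcaacttgggag
Kcnab1 from base 2441, 32 arrays: cagaatctgagatacacttagctctgcctc
Kcnab1 from base 277, 28 arrays: ctggggaccttcacccctcagcatcacatt
Kcnj4 from base 2024, 32 arrays: ctgtatggtgttgggtttgggtacagaggg
Kcnh1 from base 3809, 32 arrays: catatgagcttctctccgtctccctcgact
Kcnh1 from base 1102, 0 arrays: gggtgatccagggaagattggttttgctga
Kcnd2 from base 1977, 32 arrays: caataataagcatcccaacacctccagtaa
Kcnip2 from base 115, 32 arrays: cggcctgagggtctggaacaactccaggaa
Kcnip2 from base 93, 5 arrays: taaaaaagccctgaagcagcgtttcctcaa
Kcnip2 from base 91, 4 arrays: gtaaaaaagccctgaagcagcgtttcctca
Kcnu1 from base 3419, 32 arrays: ttgtgccagttgcttagtggtcagcgagtt
The last 2 Kcnip2 probes share a run of 49 of their 50 bases and read nearly the same stretch. The longest run shared by any pair of Kcnab1 probes was 7 bases. The table places the genes Kcnab1, Kcnj4, Kcnh1, Kcnd2, Kcnip2 and Kcnu1 on chromosomes 3, 15, 1, 6, 19 and 8, in that order.

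Of the 75 genes, 32 had a probe detected on at least 24 of the 32 arrays and were tested. That is 42.7% of them, beside 43.7% of all genes in the table. A further 16 were detected on 1 to 23 arrays and 27 on none. A gene not detected with these probes may still be transcribed. The signals of the 27 genes detected on no array lay between 110.5 and 214.9, on the scanner's linear scale.

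**Figure D1:**
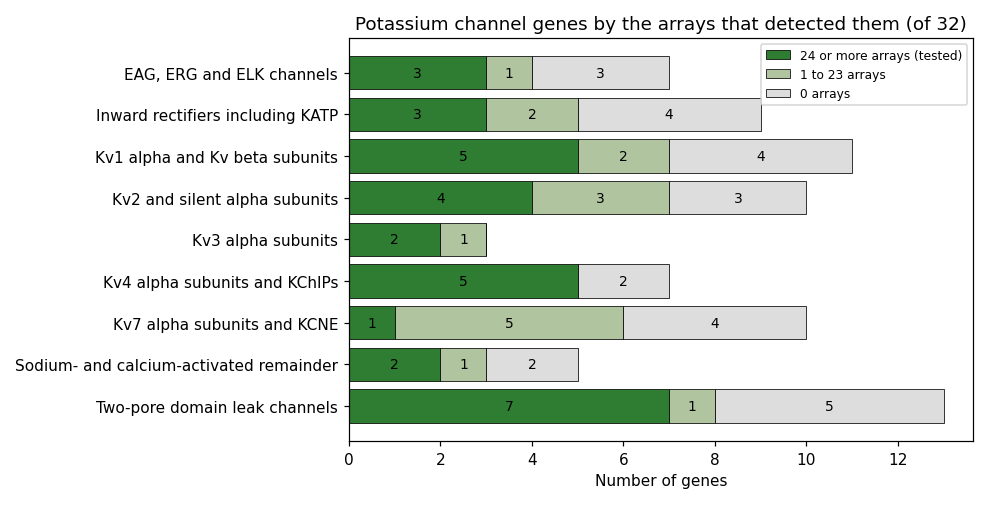
Number of potassium channel genes (horizontal axis) in each role list (vertical axis), split by the number of the 32 arrays that detected the gene's best probe. K2P leak channels (two-pore domain) had 7 tested genes of 13, and the Kv7 and KCNE list 1 of 10.

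The tested share differed between the role lists. All 3 Kv3 genes, which allow fast firing, were detected on some array, and 2 were tested. Of the Kv4 and KChIP list, 5 of 7 were tested, namely Kcnd2 and the KChIP genes Kcnip1 to Kcnip4, while Kcnd1 and Kcnd3 were detected on no array. The Kv1 and beta list had 5 tested of 11, with Kcna4, Kcna5, Kcna7 and Kcna10 on no array. The Kv7 and KCNE list had only Kcnq5 tested of 10. There, Kcnq3, an M channel subunit, was detected on 15 arrays, while Kcnq1, Kcne2 and Kcne3 were among those on none.

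In the Kv2 and silent list 4 of 10 were tested, and Kcng1, Kcng3 and Kcnv2 were on no array. In the KCNH list 3 of 7 were tested, and Kcnh4, Kcnh6 and Kcnh7 were on none. The inward rectifiers had 3 of 9 tested, with Kcnj1, Kcnj5, Kcnj14 and Kcnj15 on none. Kcnj8, the pore of vascular KATP channels, was detected on 4 arrays. The K2P list had 7 of 13 tested, with Kcnk7, Kcnk9, Kcnk10, Kcnk15 and Kcnk18 on none. The remaining list, named for sodium- and calcium-activated channels, had 2 of 5 tested, Kcnt1 and Kcnu1, with Kcnn4 and Kcnmb1 on none. That name labels the list and not how each member opens. Kcnu1 encodes the sperm channel Slo3, and its probe was nevertheless detected on all 32 arrays, with a signal of 180.4 to 287.1.

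Values below are normalized signals on a log2-like scale, and a contrast is the ethanol mean minus the control mean on it. At a false discovery rate (FDR) below 1% over all probes tested, 1 of the 32 genes was called, Kcnab1, beside 8.02% of the 7926 genes tested. A wider rule asked for an FDR below 10% and a 1.1-fold change, and by it 5 of the 32 were called (15.6%, beside 11.5% of all genes tested). All 5 were higher in the ethanol mice, among them Kcnab1, Kcnj4, Kcnh1 and Kcnd2. Higher calls made up 5.26% of all genes tested and lower calls 6.28%. The 5 calls became 3 without C66, beside 9.69% of all genes tested. They became 1 when arrays were scaled by their medians (6.78% of all genes) and 0 with chip as a random block (7.29%). The contrasts of 23 of the 32 genes were above 0 and their median was 0.041, while the median over all genes was -0.0062, with 46.73% above 0.

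**Figure D2:**
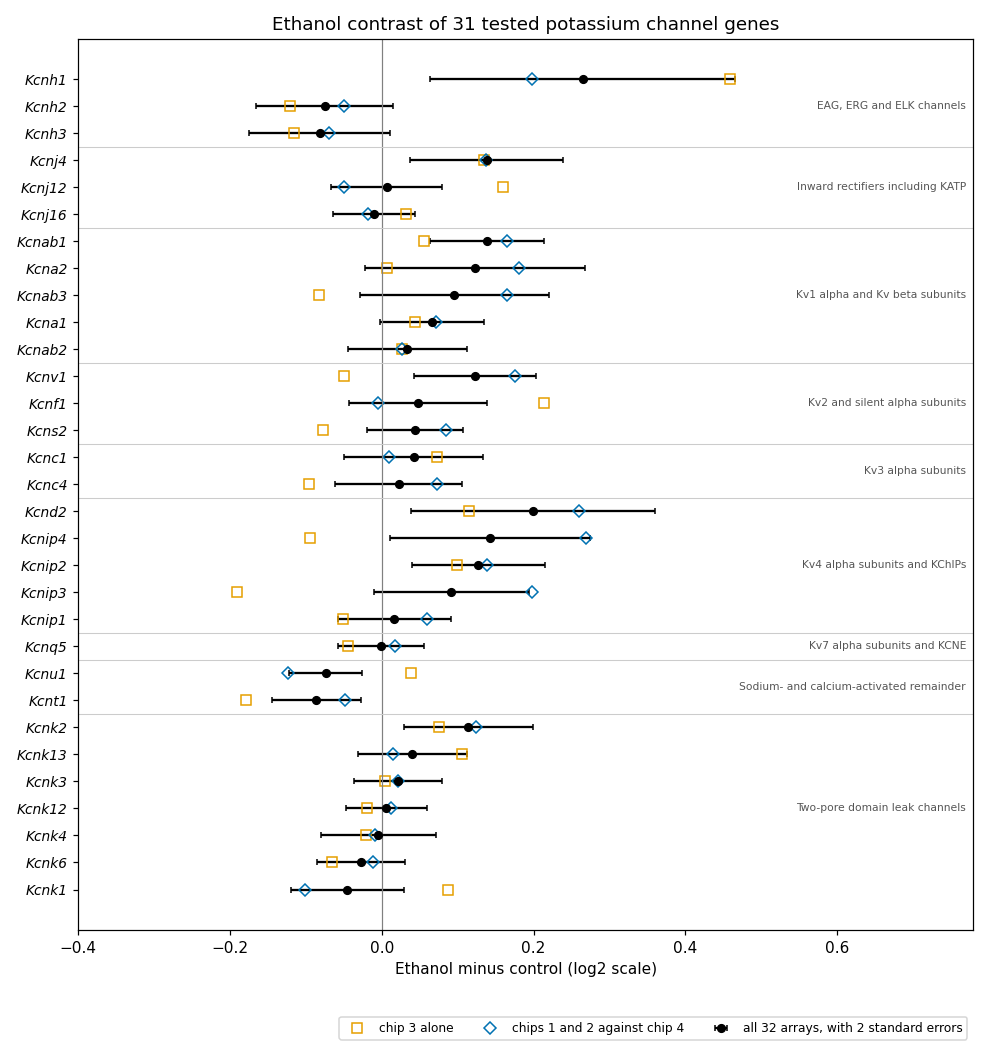
Contrast of ethanol minus control (horizontal axis, log2 scale) for 31 of the 32 tested genes (vertical axis), grouped by role list. Black points with bars are the contrast over all 32 arrays with 2 standard errors, open squares chip 3 alone, and open diamonds ethanol on chips 1 and 2 against control on chip 4. Kcnh1 has the highest contrast over all arrays (0.26), and Kcnip3 lies on opposite sides of 0 on chip 3 and on the other chips.

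Kcnab1, a beta subunit that speeds the inactivation of Kv1 channels, ranged from 10.28 to 10.66 with a median of 10.54 on the 20 ethanol arrays. On the 12 control arrays it ranged from 10.20 to 10.57 with a median of 10.38. The groups overlapped, and 18 of 20 ethanol values lay above the control median. The contrast was 0.14 (SE 0.038, limma adjusted p = 0.0093), just past the 1.1-fold limit. It was 0.17 between chips 1 and 2 and chip 4 (adjusted p = 0.0031) and 0.056 on chip 3 (SE 0.080, adjusted p = 0.71). Without C66 its adjusted p over all arrays was 0.017.

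The other tested Kcnab1 probes did not share this contrast. The probe from base 2441 gave 0.013 over all arrays (SE 0.055, adjusted p = 0.90) and that from base 277 gave 0.022 (SE 0.029, adjusted p = 0.65). On chip 3 the base 2441 probe read 10.070, 9.886, 9.869 and 10.096 in the ethanol mice and 10.198, 10.346, 10.311 and 10.263 in the controls, with no overlap. Its chip 3 contrast was -0.30 (SE 0.062, adjusted p = 0.0085), against 0.14 on the other chips, and the difference of these contrasts was -0.44 (SE 0.10, adjusted p = 0.0058). Which transcript forms each probe reads was not tested.

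The other Kv1 genes were Kcna1 and Kcna2, pore subunits of axonal channels, and the beta subunits Kcnab2 and Kcnab3. None was called, and all had contrasts above 0, from 0.034 to 0.12. The median of the list was 0.096 over all arrays and 0.027 on chip 3.

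In the Kv2 and silent list 1 of the 4 tested genes was called, with a list median of 0.085. The silent subunit genes Kcnf1, Kcns2 and Kcnv1 were not called over all arrays. Kcnv1 ranged from 9.600 to 10.07 on ethanol arrays (median 9.841) and from 9.534 to 9.999 on control arrays (median 9.744). Its contrast of 0.12 (SE 0.040, adjusted p = 0.029) fell short of 1.1-fold and so was not called. It was 0.18 between chips 1 and 2 and chip 4 (adjusted p = 0.0012) and -0.050 on chip 3 (SE 0.080, adjusted p = 0.74). Kcnf1 showed the opposite order, with 0.21 on chip 3 (SE 0.069, adjusted p = 0.062) and -0.0051 between the other chips.

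Neither tested Kv3 gene was called. Kcnc1, the Kv3.1 pore subunit of fast-spiking cells, had a contrast of 0.042 (SE 0.046, adjusted p = 0.57). The tested Kcnc4 probes differed in direction over all arrays, at 0.022 for the brighter and -0.065 for the dimmer. On chip 3 the dimmer one read 8.635, 8.629, 8.622 and 8.690 in ethanol mice and 8.883, 8.838, 9.041 and 8.905 in controls, without overlap, a contrast of -0.27 (SE 0.054, adjusted p = 0.0063). It was 0.033 between the other chips, and the difference was -0.31 (SE 0.084, adjusted p = 0.018).

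All 5 tested genes of the Kv4 list had contrasts above 0, and 1 was called. Kcnd2, the Kv4.2 pore subunit, ranged from 8.855 to 9.811 with a median of 9.236 on ethanol arrays and from 8.819 to 9.443 with a median of 9.100 on control arrays. The groups overlapped, and 16 of 20 ethanol values lay above the control median. The contrast was 0.20 (SE 0.080, adjusted p = 0.078). The mean was 9.129 on chip 1 and 9.449 on chip 2, both of ethanol mice, so the ethanol chips differed from each other by more than the contrast. Without C66 the contrast was 0.19 with an adjusted p of 0.13.

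Kcnip2 ranged from 8.433 to 8.867 on ethanol arrays (median 8.653) and from 8.316 to 8.739 on control arrays (median 8.529). Its contrast of 0.13 (SE 0.044, adjusted p = 0.039) was short of 1.1-fold. It was 0.099 on chip 3 and 0.14 between the other chips. Kcnip4 had 0.14 over all arrays (SE 0.066, adjusted p = 0.13), with 0.27 between the other chips (adjusted p = 0.0046) and -0.095 on chip 3 (adjusted p = 0.37). The difference of these contrasts had an adjusted p of 0.052.

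Of the 32 genes, each read from 1 probe, Kcnip3 had the widest difference between the contrasts of the chip sets. On chip 3 the ethanol mice read 9.725, 9.916, 9.647 and 9.950 and the controls 10.050, 10.013, 10.049 and 9.890. The ethanol values lay mostly lower there, with an overlap from 9.890 to 9.950, and the contrast was -0.19 (SE 0.069, adjusted p = 0.092). The ethanol means on chips 1 and 2 were 10.05 and 9.925 and the control mean on chip 4 was 9.790, a contrast of 0.20 (SE 0.052, adjusted p = 0.0071). The difference was -0.39 (SE 0.099, adjusted p = 0.012). Over all arrays the contrast was 0.092 (SE 0.051, adjusted p = 0.21).

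**Figure D3:**
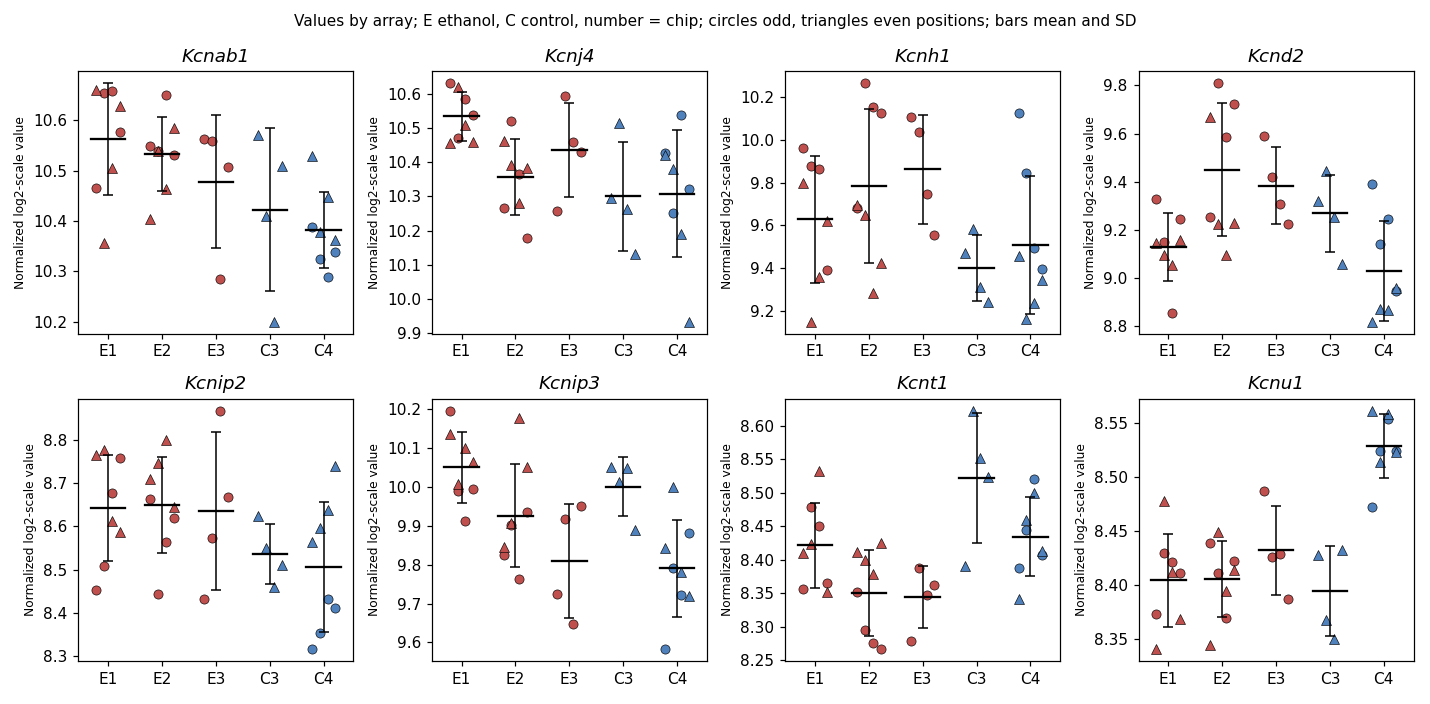
Normalized value on the log2 scale (vertical axis) of 8 genes on each array, with ethanol (red, E) and control (blue, C) arrays split by chip number (horizontal axis), circles for odd and triangles for even positions, and the mean and SD of each set of arrays. All 8 chip 4 controls of Kcnu1 read 8.472 to 8.562, while its chip 3 controls read 8.350 to 8.432.

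Of the KCNH list, Kcnh1, the EAG channel Kv10.1, was called. It ranged from 9.150 to 10.27 with a median of 9.720 on ethanol arrays and from 9.164 to 10.13 with a median of 9.427 on control arrays. The contrast of 0.26 (SE 0.10, adjusted p = 0.060) was the highest of the 32 genes, and so was its SD within groups, 0.302, beside a median of 0.110 for the 32 genes and 0.105 for all genes tested. On chip 3 the ethanol mice read 10.108, 10.038, 9.745 and 9.557 and the controls 9.473, 9.583, 9.314 and 9.241. These overlapped only between 9.557 and 9.583, and the chip 3 contrast was 0.46 (SE 0.10, adjusted p = 0.014). Between the other chips it was 0.20 (SE 0.12, adjusted p = 0.26).

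Kcnh2 and Kcnh3 were not called. The tested Kcnh2 probes, for the ERG channel, gave -0.075 (adjusted p = 0.25) and 0.071 (adjusted p = 0.13). Kcnh3, an ELK channel of forebrain neurons, gave -0.082 (SE 0.046, adjusted p = 0.22).

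Among the inward rectifiers, Kcnj4, the Kir2.3 pore subunit, was called. It ranged from 10.18 to 10.63 with a median of 10.46 on ethanol arrays and from 9.933 to 10.54 with a median of 10.31 on control arrays. The contrast was 0.14 (SE 0.050, adjusted p = 0.050), close to the 1.1-fold limit. It was 0.14 on chip 3 (SE 0.081, adjusted p = 0.31) and 0.14 between the other chips (SE 0.060, adjusted p = 0.097). The lowest control value, 9.933, was that of C66, and without that array the contrast was 0.10 with an adjusted p of 0.13. Kcnj12 and Kcnj16 gave 0.0065 and -0.010.

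None of the 7 tested K2P genes was called, and their median contrast was 0.0060. Kcnk2, the mechanosensitive channel TREK-1, had the lowest p-value of the list. It ranged from 9.285 to 9.739 on ethanol arrays (median 9.506) and from 9.246 to 9.575 on control arrays (median 9.409), a contrast of 0.11 (SE 0.043, adjusted p = 0.055) that was short of 1.1-fold. The other 6 lay between -0.046 and 0.040. In the Kv7 list the tested Kcnq5 gave -0.00071 (SE 0.028, adjusted p = 0.99).

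The tested genes of the remaining list, Kcnt1 and Kcnu1, were lower in the ethanol mice at an FDR below 10%. Both were short of 1.1-fold on this scale, which compresses changes near background. A normexp background correction (neqc, offset 16) compresses such changes less. With it Kcnt1 gave -0.28 (adjusted p = 0.023) and Kcnu1 -0.22 (adjusted p = 0.015). Both were called by the wider rule, beside 21.4% of all genes with neqc. Kcnt1, the sodium-activated channel Slack, had a contrast of -0.086 (SE 0.029, adjusted p = 0.035). On chip 3 its ethanol values of 8.279, 8.387, 8.347 and 8.363 lay below the controls of 8.390, 8.623, 8.552 and 8.524, a contrast of -0.18 (SE 0.057, adjusted p = 0.059). Between the other chips it was -0.048 (SE 0.034, adjusted p = 0.32).

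Kcnu1 had a contrast of -0.074 (SE 0.024, adjusted p = 0.029) over all arrays. Its ethanol means on chips 1, 2 and 3 were 8.404, 8.405 and 8.432, and its chip 3 control mean was 8.394. The chip 4 controls had a mean of 8.529 (SD 0.030, n = 8). Its chip 4 values thus stood above both the ethanol arrays and the controls of chip 3, apart from an overlap of 8.472 to 8.487. The contrast was -0.12 between the other chips (SE 0.025, adjusted p = 0.00085) and 0.038 on chip 3, a difference of 0.16 (SE 0.046, adjusted p = 0.022).

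At an FDR below 10% with no limit on size, 10 of the 32 genes passed (31.2%, beside 24.7% of all genes). These were the 5 genes called above with Kcnv1, Kcnip2 and Kcnk2, all higher, and Kcnt1 and Kcnu1, both lower. Of all genes 10.3% were higher and 14.4% lower by this rule. With neqc these 10 genes also passed the 1.1-fold limit, beside 21.4% of all genes called by that rule. For none of the 32 genes did the 20 ethanol and 12 control values separate without overlap, which was the case for 0.0126% of all genes. On chip 3 alone the groups did not overlap for 4 of them (12.5%, beside 15.6% of all genes), among them Kcnf1, Kcnk13 and Kcnt1.

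On chip 3, where the same chip carried both groups, the wider rule called 5 of 32 genes (15.6%, beside 17.5% of all genes). Of these 3 were higher in the ethanol mice, Kcnf1 and Kcnh1 among them, and Kcnip3 and Kcnt1 were lower, beside 8.78% of all genes higher and 8.68% lower. Between chips 1 and 2 and chip 4, 6 of 32 were called (18.8%, beside 18.9% of all genes). All were higher, as were 8.38% of all genes: Kcnab1, Kcnd2, Kcnip2, Kcnip3, Kcnip4 and Kcnv1. The chip sets share no arrays, and none of the 32 genes was called in the same direction in both. The share of all genes called so in both was not counted, so this is no result about the channel genes. The signs of the chip 3 and other contrasts were the same for 18 of the 32 genes, or 56.2%, beside 50.7% of all genes. For 2 of 32 genes, Kcnip3 and Kcnu1, the contrasts themselves differed at an FDR below 5% (6.25%, beside 9.2% of all genes). That count takes 1 probe per gene and leaves out the Kcnab1 and Kcnc4 probes described above.

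**Figure D4:**
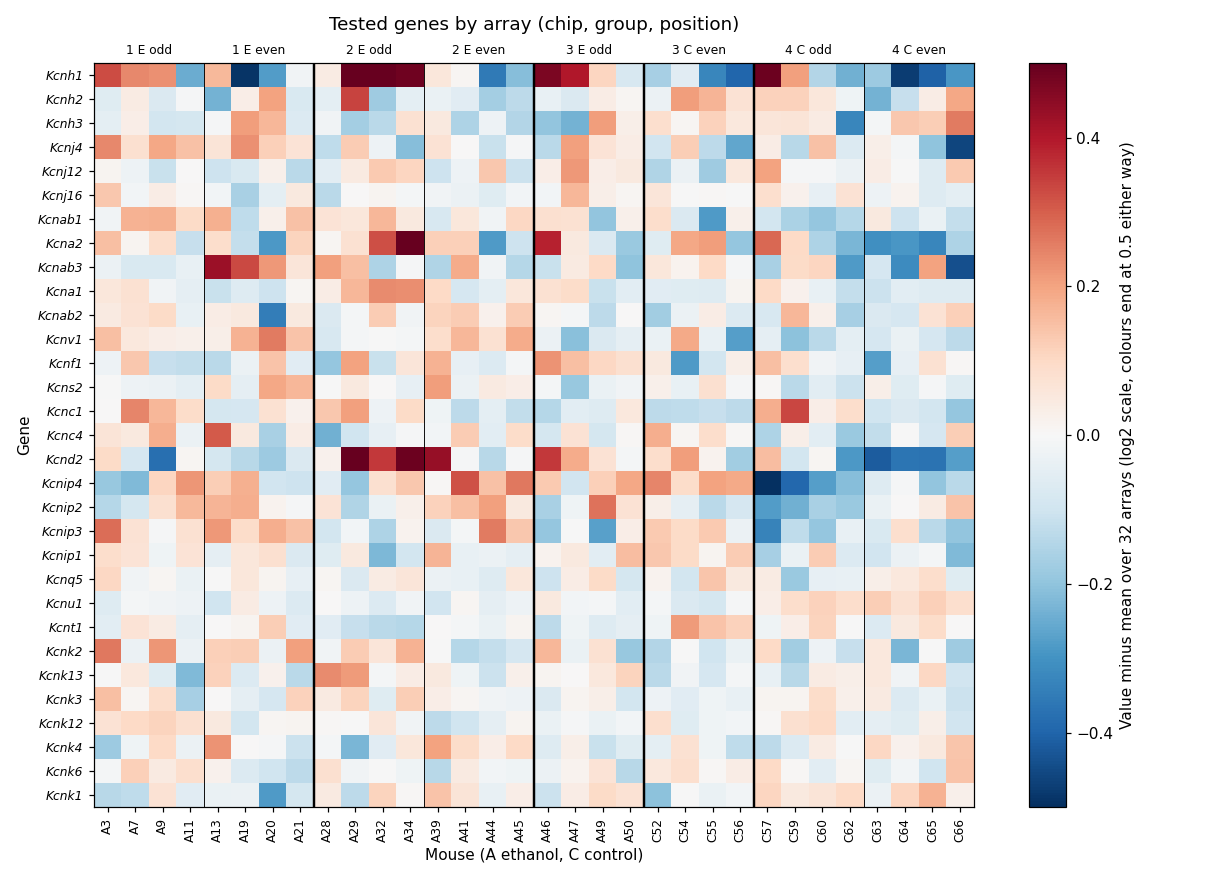
Value minus its mean over the 32 arrays (colour, log2 scale, colours end at 0.5 either way) for 31 of the 32 tested genes (rows) on each array (columns), ordered by chip, group (E ethanol, C control) and odd or even position. Kcnh1 is redder at odd positions (mean 9.849) than at even positions (mean 9.432) of chips 1, 2 and 4.

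Several of these genes differed between odd and even positions where position does not coincide with treatment. By the labels, every mouse at an odd position had a lower number than every mouse at an even position of the same chip. On chips 1, 2 and 4, each of 1 treatment, 7 of 32 genes differed between odd and even positions at an FDR below 5% with chip as a block (21.9%, beside 13.3% of all genes). Kcnh1 averaged 9.849 at odd and 9.432 at even positions, a difference of 0.42 (SE 0.087, adjusted p = 0.0031). Kcnd2 was higher at odd positions by 0.21 (SE 0.068, adjusted p = 0.043), Kcna2 by 0.21 (adjusted p = 0.036) and Kcnc1 by 0.20 (adjusted p = 0.0016). Kcna1 and Kcnk12 were higher by 0.10 and 0.084. Kcnip2 was lower at odd positions, at -0.16 (SE 0.039, adjusted p = 0.0077).

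The ethanol mice of chip 3 lay at odd positions, and the chip 3 contrast had the same sign as the odd minus even difference of the other chips for 25 of the 32 genes (78.1%, beside 69.1% of all genes). Kcnh1 had the highest value in both, 0.46 and 0.42. With chip and odd or even position both in the fit, no potassium channel gene was called, and 0.0505% of all genes were. The contrast of Kcnh1 was then 0.042 (SE 0.17, adjusted p = 0.96), and for Kcnd2 -0.092 (SE 0.13, adjusted p = 0.88). For Kcnip2 it was 0.26 (SE 0.085, adjusted p = 0.25). Only chip 3 holds both groups, so treatment in that fit rests on its 4 ethanol and 4 control mice. From their contrast the odd minus even difference of the other chips is taken off. The SE of Kcnh1 was wider in it than over all arrays. The fit therefore cannot test the contrasts over all arrays, and the loss of calls in it is no result about them. The difference between odd and even positions is a measured one, and position and mouse number cannot be told apart in it.

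**Figure D5:**
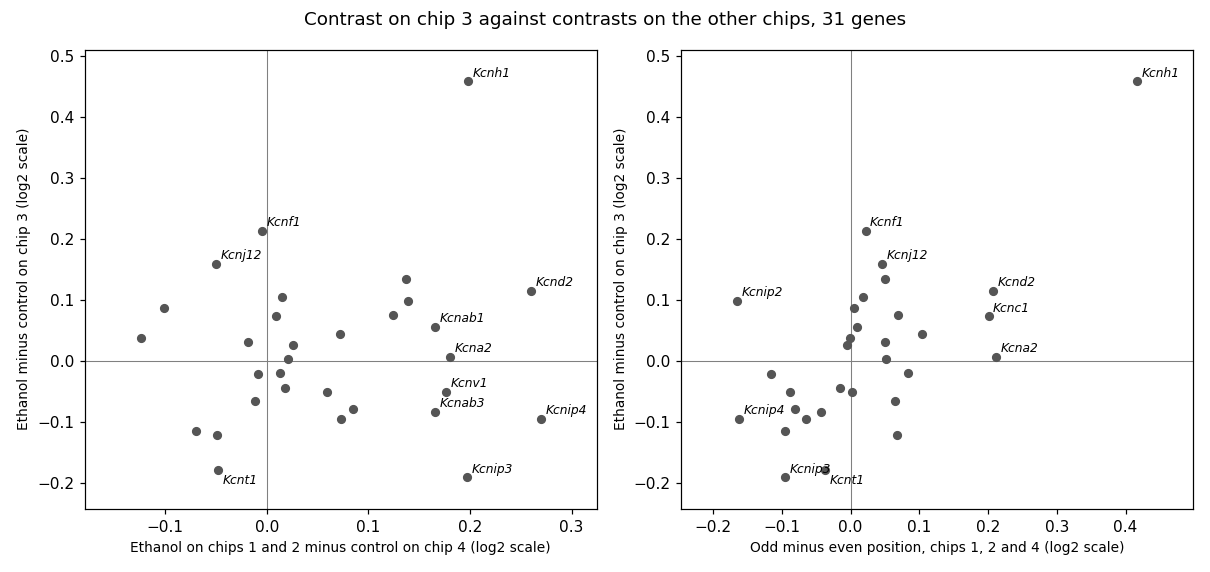
Contrast of ethanol minus control on chip 3 (vertical axes, log2 scale) for 31 of the 32 genes (points), against that of chips 1 and 2 with chip 4 (left) and against odd minus even position on chips 1, 2 and 4 (right). On the left 17 of the 31 genes plotted have the same sign on both axes, and on the right 24.

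Of 26 genes chosen as channel partners and related channels, 22 were in the table and 17 were tested. By the wider rule none was called higher, beside 5.26% of all genes, and 4 were called lower, beside 6.28%: Vapb at -0.29, Dlg2 at -0.22, Nedd4l at -0.19 and Dlg4 at -0.19. Nedd4l gave -0.29 between the other chips but 0.086 on chip 3 (adjusted p = 0.33). With median scaling Dlg2 (adjusted p = 0.15) and Dlg4 (adjusted p = 0.24) were no longer called. Vapb encodes a membrane contact protein of a family that binds Kv2 channels, Dlg2 and Dlg4 encode scaffolds that anchor Kv1 and inward rectifier channels, and Nedd4l encodes a ubiquitin ligase that acts on Kv7 channels. The Kv4 partners Dpp6 and Dpp10 gave 0.030 and 0.043 and were not called. The list's median was -0.0046.

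Markers of cell types were read beside these genes, by the same rule and beside the same shares of 5.26% of all genes higher and 6.28% lower. Of 6 projection neuron markers tested, 3 were lower in ethanol mice, Tbr1 (-0.32), Slc17a7 (-0.25) and Nrgn (-0.17), and 1 of 8 oligodendrocyte markers was lower, Cldn11 (-0.20). Of 5 interneuron markers 1 was higher, Gad1 (0.30), while Vip, Pvalb and Sst gave -0.12, -0.073 and -0.012. Of 7 astrocyte markers 2 were higher, Aqp4 (0.47) and Slc1a3 (0.16), while Aldh1l1, Aldoc and S100b gave -0.024, -0.0070 and -0.050. Of 7 endothelial and mural markers 2 were higher, Flt1 (0.17) and Rgs5 (0.27), and Cldn5 gave -0.069. Between the other chips Rgs5 gave 0.36, but 0.062 on chip 3 (limma adjusted p = 0.67). Nrgn gave -0.235 and -0.0485 (adjusted p = 0.62 on chip 3) in the same order, and Cldn5 -0.29 and 0.42. The remaining called markers had the same direction in both chip sets, with the larger contrast on chip 3. With median scaling Gad1, Slc1a3, Flt1 and Cldn11 were no longer called, with adjusted p-values of 0.17, 0.44, 0.20 and 0.21. Neurod6, also a projection neuron marker, was detected on no array. The mean level of the projection neuron list ran from 11.02 to 11.21 over the ethanol arrays and from 11.14 to 11.40 over the controls, and that of the astrocyte list from 10.71 to 10.98 and from 10.70 to 10.99.

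On chip 3, 6 of 8 oligodendrocyte markers were called lower in the ethanol mice, beside 8.68% of all genes, with a list median of -0.37. There 2 of 4 olfactory bulb markers were called higher, beside 8.78% of all genes, Doc2g by 0.57 and Sp8 by 0.20. Also higher on chip 3 were 3 of 7 astrocyte, 2 of 5 interneuron and 2 of 7 endothelial and mural markers. Lower were 3 of 6 projection neuron, 1 of 9 microglial and 1 of 4 striatal markers. The oligodendrocyte list ran from 10.59 to 10.80 over the chip 3 ethanol arrays and from 10.73 to 11.39 over the chip 3 controls. The olfactory bulb list ran from 8.315 to 8.543 and from 8.130 to 8.333. No microglial or striatal marker was called over all arrays. The part of these markers in the channel contrasts was not tested. In bulk tissue, fewer cells of a type and less RNA per cell cannot be told apart.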

How the data were processed

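Frontal cortex RNA of 32 mice was profiled, 1 mouse per array. The deposited table holds, per array, the mean bead intensity of each probe, a detection p-value, and the standard error over beads and number of beads (deposited by the authors as bead summaries, without normalization). The scanner software's version and background step are not given in the sources used here. All value columns were mapped to a mouse (0 left out).

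Following the study's methods, intensities were variance-stabilized per array from the bead SD and quantile-normalized, with code written after the lumi method, and ethanol was compared with control by limma (3.58.1, R 4.3.3) with Benjamini-Hochberg adjustment over all probes tested. A probe was tested where 24 or more of the 32 arrays detected it (p-value below 0.01). A gene is read from its tested probe detected on most arrays, ties by the highest mean. The values compress changes near background, and the number of mice limits precision. Levels of different probes are not comparable. Chip 3 alone, the other chips, odd against even position (chips 1, 2 and 4, chip as a fixed block) and the difference between chip sets were fitted likewise. The fit was tested on simulated data with independent noise and known changes but no chip effect. That test cannot check a contrast in which treatment and chip coincide. Probe coordinates are not printed, as no build is stated. Figures used matplotlib 3.10.9.

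Named genes were those called at either threshold, the tested gene of lowest p-value per role list, genes whose tested probes differ in direction with at least 1 called, and genes detected on no array. The values of some genes are not reported here. Others were named after their values were seen. The genes, lists and tests were chosen with earlier results of these data known.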

Additional observations from a re-analysis of the deposited data

Results flagged for a closer look

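Read from 1 probe per gene, the ethanol contrasts of 2 potassium channel genes differed between chip 3 and the other chips in limma's test of the difference itself. The Kcnab1 probe from base 2441 and the dimmer Kcnc4 probe, from which those genes are not read, differed too, with the values given above. For Kcnip3 the difference was -0.39 (SE 0.099, adjusted p = 0.012), from -0.19 on chip 3 and 0.20 on the other chips. For Kcnu1 it was 0.16 (SE 0.046, adjusted p = 0.022), from 0.038 on chip 3 and -0.12 on the other chips. The 4 ethanol and 4 control mice of chip 3 differ in position as well as treatment, and on the other chips treatment and chip cannot be told apart.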

How the results depend on the processing

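In brackets is the share of all genes called in the same setting. Without the filter on dim probes, 75 potassium channel genes were tested. The 1 call at an FDR below 1% (8.02%) became 0 with log2 of the signal (7.89%), neqc (6.89%), median scaling (0.845%) and no filter (2.48%). It was also 0 with chip as a fixed (0.164%) or random block (0.643%) and with chip and odd or even position (0.0252%). Chip 3 alone (3.1%), array weights (8.21%) and leaving out control mouse C66 (5.31%) gave 0 too. The call became 3 with odd or even position as a covariate (8.73%) and 5 between chips 1 and 2 and chip 4 (11.3%). The 5 calls at an FDR below 10% with at least 1.1-fold (11.5%) became 10 with neqc (21.4%) and 1 with median scaling (Kcnip2, 6.78%). They became 1 without the filter (Kcnab1, 4.53%) and 1 with chip as a fixed block (Kcnt1, lower, 6.78%). They became 0 with chip as a random block (7.29%) and 0 with chip and odd or even position (0.0505%). There were 3 with array weights (Kcnd2 and Kcnh1 among them, 11.2%) and 3 without C66 (Kcnh1 and Kcnip2 among them, 9.69%). The 5 calls on chip 3 (17.5%) became 2 with neqc (10.5%) and 3 with median scaling (14.5%). Leaving out 1 mouse at a time gave 2 to 6, with 2 without A46 (12.8%), C54 (12.1%) or C55 (10.2%). With median scaling the 7 calls for position (13.3%) became 2 (2.33%), and the 2 for the difference between chip sets (9.2%) became 1 (2.57%). The cause was not tested.

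Of the named genes, 11 gave 91 values that kept direction and side of the threshold, 38 that kept direction but no longer passed, 11 that newly passed and 13 that reversed. Chip as a fixed block and chip 3 alone give the same contrast, since only chip 3 holds both groups, but were counted separately. Reading each gene from its probe of lowest p-value gave 11 of the 91 values. For each of these genes that was the probe already used, so the values were unchanged. Kcnd2 reversed to -0.092 with chip and position. Kcnv1 reversed to -0.050 with chip as a fixed block and on chip 3 alone. Kcnc1 reversed to -0.0033 with position as a covariate and -0.13 with chip and position. Kcnq5, near 0, reversed to 0.00030 with log2, 0.017 with neqc, 0.0054 with median scaling, 0.0057 with position and 0.018 between chips 1 and 2 and chip 4. Kcnu1 reversed to 0.038 with chip as a fixed block and on chip 3 alone, and to 0.039 with chip and position. No paired analysis was possible because the groups share no mouse numbers.

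How far signal over background limits the dim genes was not tested. With neqc, which compresses changes near background less, the limma contrast of Kcnip2 was 0.34 (adjusted p = 0.037). It was 0.13 (adjusted p = 0.039) on the scale used above.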
